A study of Mus musculus with 8 samples.

Results

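The genes described here encode the accessory subunits of Polycomb repressive complex 2 (PRC2), namely Jarid2, Aebp2, Mtf2, Phf1, Phf19 and Epop, and the alternative catalytic subunit Ezh1. They were chosen by name, and 7 of the 44396 loci of the RNA-Seq count table carry one of these names as their most frequent gene name. All 7 were among the 20350 loci past the expression filter. The cells were feeder-free mouse embryonic stem cells (mESCs) that express GFP under the Oct4 promoter, grown with LIF and 2 kinase inhibitors. Control cells received NaCl and treated cells 10 µM morphine, an opioid receptor agonist, for 24 h. Each of the 2 conditions has 2 RNA-Seq libraries and 2 libraries of chromatin immunoprecipitation for H3K27me3 (ChIP-Seq), 8 libraries in all. The study addressed the part of PRC2 in gene expression after morphine and in its passage to daughter cells.

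PRC2 methylates lysine 27 of histone H3, and its trimethylated form H3K27me3 marks silent developmental genes in stem cells. A core of EZH2 or EZH1, EED, SUZ12 and RBBP4 or RBBP7 carries the activity. The core joins either a Polycomb-like protein (MTF2, PHF1 or PHF19), often with EPOP, or the pair JARID2 and AEBP2, and the accessory proteins guide the complex to CpG-rich DNA and tune its activity. The forms with a Polycomb-like protein and the form with JARID2 and AEBP2 are assembled on the same core and do not hold each other's subunits as a rule.

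Total counts of the RNA libraries ran from 25081266 to 29531096. The 6 stem cell markers Pou5f1, Sox2, Nanog, Esrrb, Zfp42 and Klf4 stood at 204 to 1227 normalized CPM (read counts scaled to TMM library sizes) in the control. Of the lineage markers, Nes at 23.3 and Sox1 at 15.8 CPM were the highest, followed by Gata6 at 8.67, Gata4 at 5.398, Pax6 at 3.74 and Sox17 at 1.13 or less, and T and Cdx2 did not pass the expression filter. On the first principal component, which took 41.6% of the variance, morphine replicate 1 lay at 27.8 and morphine replicate 2 at 12, against -22.3 and -17.6 for the controls. Among reference genes, Tbp was at 50.8 CPM in the control and 51.5 after morphine and Actb at 1849 and 1660, while the locus named Gapdh held only 5.32 and 5.16 CPM. How reads that map to several places were counted is not given in the sources used here, so this value may not stand for the level of Gapdh RNA. Neither Actb nor Tbp passed the test described next (adjusted p = 0.149 and 0.876, edgeR).

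Of the 7 genes, Epop alone passed the test after morphine, and it rose. Its RNA was 1.31-fold higher, a log2 fold change of 0.39 (adjusted p = 0.0144, edgeR). The call was lost without morphine replicate 1 (adjusted p = 0.146, edgeR) and once trends with length and GC content had been taken out, where the log2 fold change was 0.20 (adjusted p = 0.0661, edgeR). No gene of the group fell past the threshold. The test was edgeR's quasi-likelihood test with Benjamini-Hochberg adjustment over all 20350 loci, at an adjusted p of 0.05. Over all loci, 0.614% were called as higher and 0.904% as lower after morphine. The median log2 fold change was -0.079 over the 7 genes and 0.0013 over all tested loci. In 3 of the 7 genes each morphine library exceeded each control, and in the other 4 they lay below, while 26.0% and 26.8% of all tested loci had libraries that did not overlap in these directions. At an unadjusted p under 0.05 stood 4 of the 7 genes and 4174 of all tested loci. These are bulk libraries, in which a change in the number of cells that express a gene and a change in RNA per cell cannot be told apart. The labels do not say whether the RNA duplicates came from separate cultures, so the p-values measure the spread between these libraries.

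**Figure D1:**
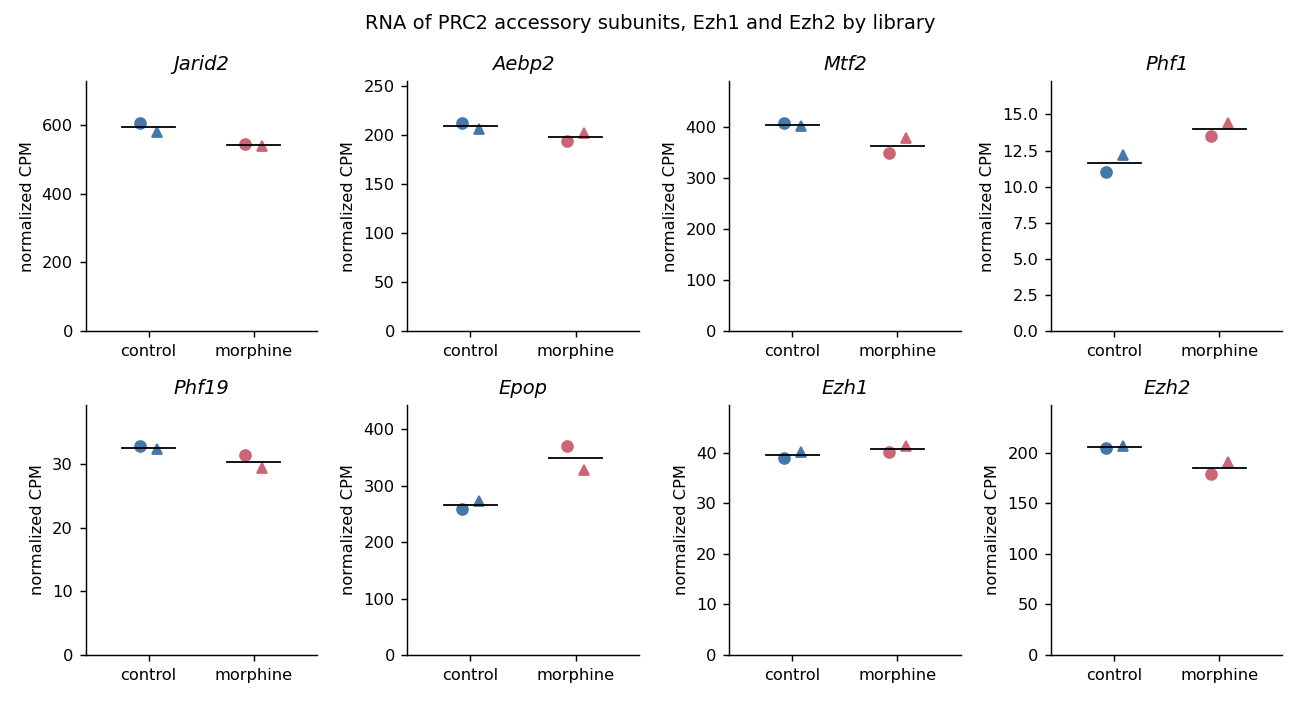
Normalized CPM (y axis, from 0) of the 7 genes and of Ezh2 in each RNA library, with circles for replicate 1, triangles for replicate 2 and a bar at the mean of 2 libraries. Epop shows the widest separation, from 259 and 274 CPM in the control to 370 and 327 CPM after morphine.

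Levels between genes were compared per kilobase of locus length. Epop had the highest level in the control, 114 ± 4.51 CPM per kb (SD, n = 2), followed by Jarid2 at 92.4 ± 3.02 and Mtf2 at 75.7 ± 0.945 CPM per kb. Aebp2 came next at 25.2 ± 0.581 CPM per kb. Phf19 at 6.89 ± 0.0531, Ezh1 at 6.51 ± 0.148 and Phf1 at 3.29 ± 0.234 CPM per kb formed the low end. The control libraries of no 2 neighbours in this order overlapped. After morphine the order was the same at the top, with Epop at 150 ± 12.9, Jarid2 at 84.5 ± 0.528, Mtf2 at 68.0 ± 3.88 and Aebp2 at 23.8 ± 0.740 CPM per kb. At the low end Ezh1 (6.70 ± 0.120) and Phf19 (6.42 ± 0.295 CPM per kb) changed places, and the morphine libraries of this pair touched, with Phf19 at 6.63 and 6.21 and Ezh1 at 6.62 and 6.79. Among the core genes the control levels ran from 72.7 CPM per kb for Ezh2 to 136 CPM per kb for Rbbp4, a range that holds Epop, Jarid2 and Mtf2, while Phf1, Phf19 and Ezh1 stood far below it.

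Epop (elongin BC and Polycomb repressive complex 2 associated protein) links PRC2.1, the form with a Polycomb-like protein, to elongin B and C. Its locus on the reverse strand of chromosome 11, from 97627387 to 97629716 of mm10, is 1 exon of 2330 bp. Replicates 1 and 2 had 7110 and 8056 counts without morphine, against 9356 and 9219 with it. As normalized CPM these were 259 and 274 in the control against 370 and 327 after morphine, so that both morphine libraries lay above both controls and replicate 1 lay highest. The means were 266 ± 10.5 and 349 ± 29.98 CPM (SD, n = 2 each), with a log2 fold change of 0.39 (standard error 0.06, 95% interval 0.26 to 0.52, adjusted p = 0.0144 from edgeR). Without morphine replicate 1 the log2 fold change was 0.30 and the adjusted p 0.146 in the same edgeR test, in which 13 loci of the whole table were called. The locus has a GC content of 66.9%, higher than that of almost any other tested locus (64 of 20335 are as high or higher). Of the 6 stem cell markers, which summed to 3513 and 3578 CPM without morphine and 3798 and 3644 CPM with it, Pou5f1 was higher in both morphine libraries (log2 fold change 0.23, adjusted p = 0.0525, edgeR) and Nanog lower (-0.12, adjusted p = 0.158). Of 6 tested lineage markers, 4 were higher in both morphine libraries, as were 26.0% of all tested loci, among them Gata6 (0.23, adjusted p = 0.288, edgeR), and none of either list passed the test. The 5 lineage markers with 1 locus each summed to 59.6 and 54.4 CPM without morphine and 59.98 and 60.3 CPM with it. Their part in the change of Epop was not tested. When per-library trends with locus length and GC content were removed, the log2 fold change of Epop was 0.20 (standard error 0.04).

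The 3 named loci whose 4 library values lay nearest to those of Epop, each taken about its own mean, were Igfbp2 (distance 0.0734 on the log2 scale), Sept1 (0.0922) and Klf2 (0.13), out of 1409 loci of like level. Sept1 is named here by its position, since the count table holds a number in place of its symbol. Their log2 fold changes were 0.32, 0.34 and 0.33. With 4 libraries this likeness describes little more than the step between conditions.

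Mtf2 encodes the Polycomb-like protein most used in mESCs, which binds CpG-rich DNA and histone H3 methylated at lysine 36. Its locus spans 108060740 to 108109219 on the forward strand of chromosome 5 and had 11233 and 11826 counts in the control against 8833 and 10657 after morphine. The CPM were 409 and 402 in the control against 349 and 379 after morphine, with both morphine libraries below both controls and replicate 1 lowest. The log2 fold change of -0.16 (standard error 0.05, 95% interval -0.26 to -0.05) did not pass the test over all loci (adjusted p = 0.106, edgeR). DESeq2 gave an adjusted p of 0.0455. The log2 fold change of Mtf2 was -0.098 without morphine replicate 1 and -0.21 without morphine replicate 2. Mtf2 has the lowest GC content of the 7, 39.5%, and with the length and GC trends removed its log2 fold change was 0.04, of the opposite sign (adjusted p = 0.688, edgeR).

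The other Polycomb-like genes were weakly expressed. Phf1, on chromosome 17 from 26933127 to 26937908, had 303 and 359 counts in the control against 342 and 406 after morphine. As CPM these were 11.03 and 12.2 against 13.5 and 14.4, so the groups did not overlap and the morphine libraries were higher. Its log2 fold change of 0.27 had the widest error of the group (standard error 0.09, adjusted p = 0.139, edgeR), and it was 0.13 with the length and GC trends removed (adjusted p = 0.598). Phf19, on chromosome 2 from 34893755 to 34913985 on the reverse strand, had 32.8 and 32.4 CPM in the control against 31.4 and 29.4 CPM after morphine. The morphine libraries lay just below the controls, with a log2 fold change of -0.10 ± 0.07 (standard error) and an adjusted p of 0.417 in edgeR. Of the summed level per kb of the 3 Polycomb-like genes, Mtf2 made up 88.4% and 87.9% without morphine against 86.2% and 87.3% with it, the main share in every library.

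Jarid2 encodes a relative of the jumonji demethylases that lacks demethylase activity and binds PRC2 through its amino-terminal part. The locus on chromosome 13, from 44730774 to 44921643 on the forward strand, had the highest counts of the 7, 16656 and 17043 in the control against 13768 and 15188 after morphine. The CPM were 606 and 579 in the control against 544 and 540 after morphine, and the morphine libraries lay below both controls. The log2 fold change of -0.13 (standard error 0.04, 95% interval -0.22 to -0.04) did not pass the test (adjusted p = 0.124, edgeR). Aebp2, a zinc finger protein that binds PRC2 beside JARID2, lies on chromosome 6 from 140622663 to 140678472. It had 213 and 206 CPM in the control against 194 and 202 CPM after morphine, with a log2 fold change of -0.08 ± 0.05 (standard error) and an adjusted p of 0.382 in edgeR. With the length and GC trends removed, the log2 fold change was -0.10 for Jarid2 and 0.02 for Aebp2, the latter of the opposite sign.

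Ezh1 encodes a methyltransferase of lower activity than its paralog EZH2. The Ezh1 locus on chromosome 11, from 101191115 to 101226463 on the reverse strand, had 38.9 and 40.2 CPM in the control against 40.2 and 41.3 CPM after morphine. The morphine libraries lay just above the higher control, with a log2 fold change of 0.04 (95% interval -0.09 to 0.18, adjusted p = 0.749, edgeR). Ezh2 had 205 and 206 CPM in the control against 179 and 191 CPM after morphine, with a log2 fold change of -0.15, standard error 0.05, that did not pass the test (adjusted p = 0.117, edgeR).

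Ratios between genes within a library do not depend on the scaling of that library. A trend with GC content that differs between libraries does not cancel in them where the genes differ in GC content. Epop has 66.9% GC against 49.5% for Jarid2, and Ezh1 50.1% against 45.8% for Ezh2. With the length and GC trends removed, Epop had a log2 fold change of 0.20 (0.39 as reported). Jarid2 had -0.10 (-0.13 as reported). The part of GC content in the ratios below was not tested. The ratio of Ezh1 to Ezh2 per kb was 0.0884 and 0.0907 without morphine against 0.105 and 0.1005 with it. Epop stood at 1.175 and 1.301 times the level of Jarid2 per kb in the control and at 1.87 and 1.67 times after morphine. The summed level of Epop and the Polycomb-like genes relative to that of Jarid2 and Aebp2 was 1.64 and 1.76 in the control against 2.17 and 2.04 after morphine. In these 3 ratios both morphine libraries lay above both controls, and the smallest p that an exact permutation test of 2 libraries against 2 allows is 0.33. Without Epop, the summed level of Mtf2, Phf1 and Phf19 relative to that of Jarid2 and Aebp2 was 0.719 and 0.742 in the control against 0.699 and 0.747 after morphine, so that these ranges overlapped and the higher sum rested on Epop. The ratio of Jarid2 to Aebp2 differed little, with 3.695 and 3.645 in the control against 3.641 and 3.454 after morphine. Both morphine libraries lay below both controls in this ratio. Relative to the core gene Suz12, Mtf2 stood at 0.680 and 0.709 in the control against 0.715 and 0.695 after morphine, ranges that overlap.

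**Figure D2:**
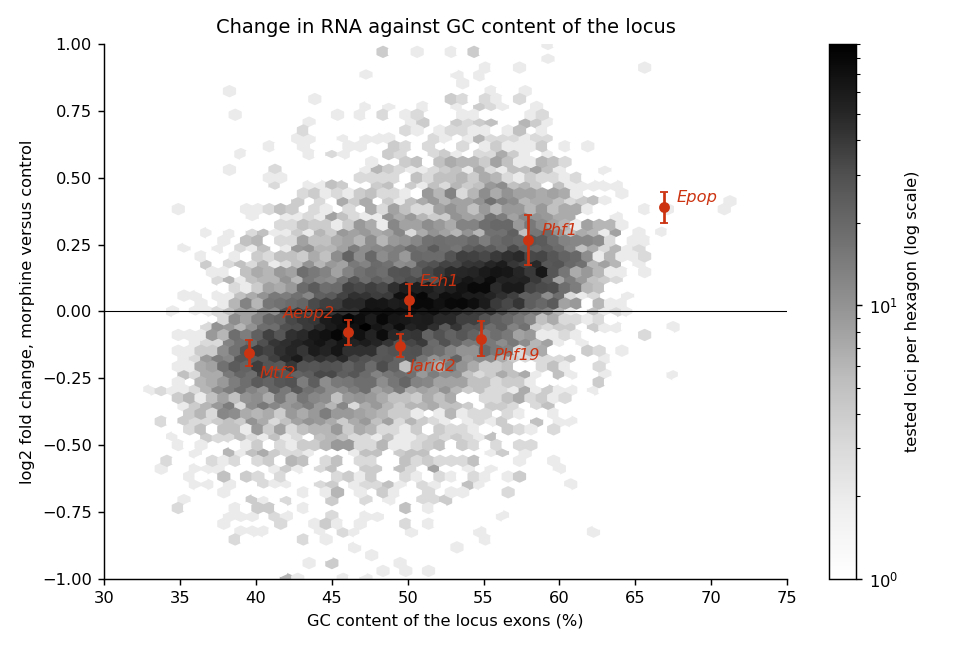
Log2 fold change after morphine (y axis) against the GC content of the locus exons (x axis, percent) for all tested loci, as hexagons shaded by the number of loci on a log scale, with the 7 genes in red and bars of 1 standard error. The cloud rises with GC content. Epop, at 66.9% GC and 0.39, and Mtf2, at 39.5% and -0.16, have the highest and lowest GC content of the 7 genes.

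The GC content of the locus moved with the fold change over the whole table. Across 20335 tested loci, which are not independent replicates, Spearman's correlation of the log2 fold change was 0.485 with GC content, and over all 20350 it was -0.144 with locus length. Epop at 66.9% and Phf1 at 58.0% GC had the largest positive values of the group. Mtf2 at 39.5% had the largest negative value, and Aebp2 at 46.1%, Jarid2 at 49.5% and Ezh1 at 50.1% lay between, against a median of 49.7% over tested loci. The order was not strict, since Jarid2 had a lower value than Aebp2 at a higher GC content. Phf19, at 54.9% GC, had a negative log2 fold change, which moved from -0.10 to -0.19 when the trends were removed. With the trends removed the 7 log2 fold changes ran from -0.19 for Phf19 to 0.20 for Epop, and none passed the test in edgeR, in which 101 loci were called.

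**Figure D3:**
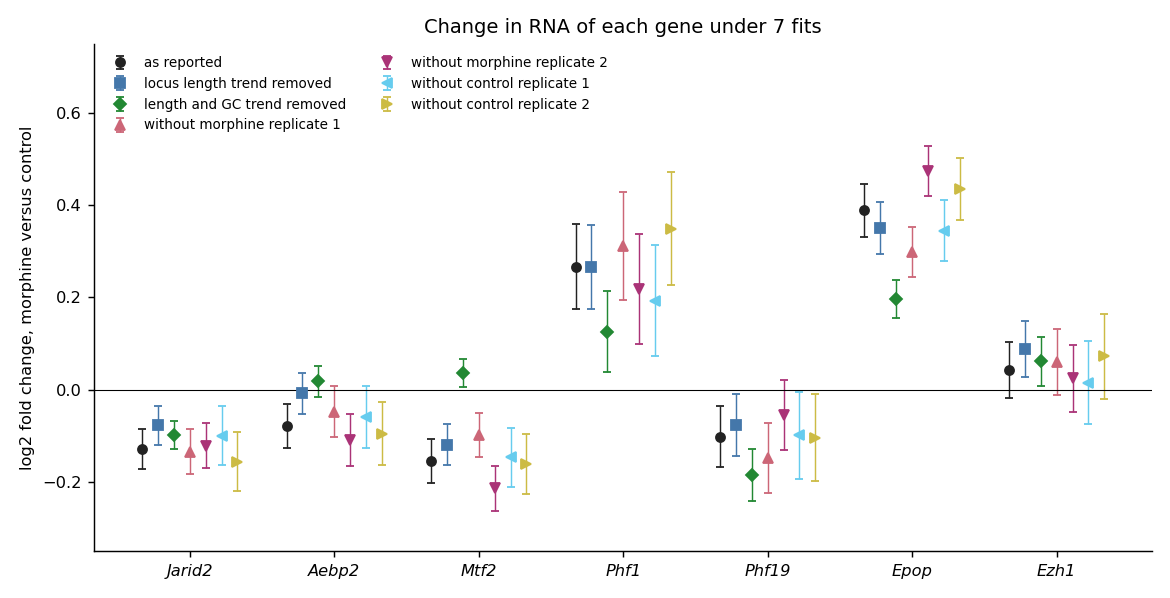
Log2 fold change after morphine (y axis) with bars of 1 standard error for each of the 7 genes (x axis) as reported, with trends of locus length or of length and GC content removed, and with each RNA library left out. Epop stays above 0 in all 7 fits, between 0.20 and 0.475, and the green diamonds of Aebp2 and Mtf2, with both trends removed, lie on the other side of 0 from the reported values.

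The other genes of the complex were measured beside them. Of the 5 core genes (Ezh2, Eed, Suz12, Rbbp4 and Rbbp7) none passed edgeR's quasi-likelihood test, 2 had an unadjusted p under 0.05, as did 4174 of the 20350 tested loci, and DESeq2 called Suz12 alone. All 5 had negative log2 fold changes, from -0.18 for Suz12 to -0.06 for Rbbp7, with a median of -0.080. The morphine libraries lay below both controls in 4 of them, against 26.8% of all tested loci, while Eed overlapped. All 5 had a GC content of 41.6% to 47.8%, below the median of 49.7% over tested loci, on the side where log2 fold changes were lower over the whole table, and its part in their shared sign was not tested. Of 9 partner and demethylase genes, 8 were tested and none passed edgeR's quasi-likelihood test, and 4 had an unadjusted p under 0.05. DESeq2 called Elob and Kdm6a, and edgeR's exact and likelihood ratio tests each called Kdm6a. Elob, the elongin B subunit that binds EPOP, had 121 and 122 CPM in the control against 147 and 133 CPM after morphine (log2 fold change 0.21, adjusted p = 0.0788, edgeR). Eloc, its elongin C partner, had 103 and 98.7 CPM in the control against 92.4 and 93.5 CPM after morphine (log2 fold change -0.12, adjusted p = 0.224, edgeR). Kdm6a, an H3K27 demethylase, had 94.2 and 87.6 CPM in the control against 73.9 and 79.9 CPM after morphine (log2 fold change -0.24, adjusted p = 0.0671, edgeR). The 7 loci named Uty, its Y-linked relative, had 0 counts in every library. The GC content was 55.9% for Elob, 41.3% for Eloc and 43.2% for Kdm6a, against the median of 49.7%. Its part in the changes of these genes was not tested.

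H3K27me3 peaks near the genes were read from the lists of the ChIP-Seq libraries, which hold 8681 to 13778 peaks. The lists give a score, -10 times the log10 of the p-value of the peak caller, but no read counts, so the presence of a peak and its rank within a library were compared. A gene was taken to have a peak if any base of one lay within 5 kb of the 5' end of its locus. Phf19 had a peak in all 4 libraries, Epop in 3 and Jarid2 in 1, and the other 4 genes had none. Of 18179 tested loci with a strand, 17.0% had a peak in all 4 libraries and 67.0% had one in none. None of the 7 genes had peaks in both morphine libraries but no control, a pattern of 1.16% of the tested loci, or in both controls and neither morphine library, which 1.07% of the loci had. The number of the 7 genes with a peak was 2 and 1 in the control replicates and 3 and 2 in the morphine replicates. Of all tested loci, 24.3% and 25.1% had one in the controls and 23.6% and 25.5% in the morphine replicates.

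**Figure D4:**
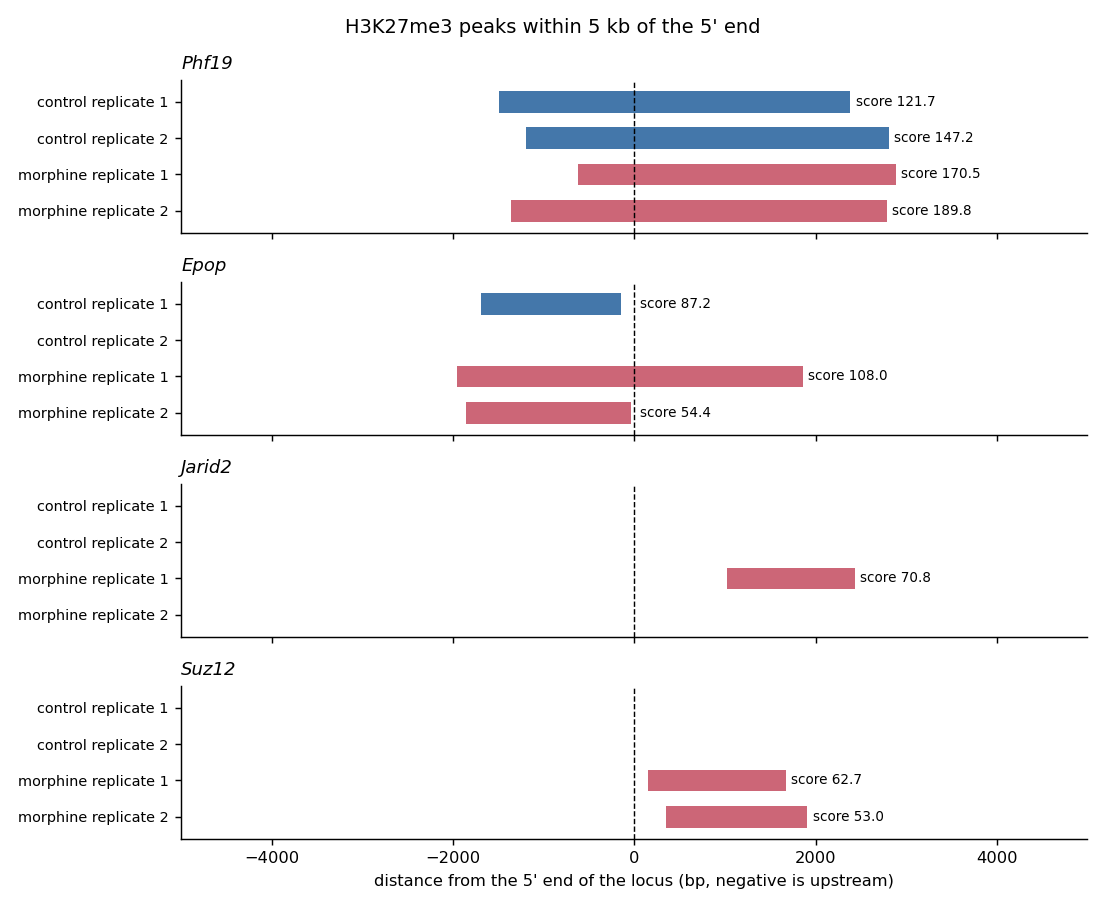
Position of H3K27me3 peaks (bars, blue for control and red for morphine) relative to the 5' end of the locus (x axis, bp, negative upstream) in each ChIP library (rows) for Phf19, Epop, Jarid2 and the core gene Suz12, with the score of each peak. Only the peaks of Phf19 and that of Epop in morphine replicate 1 cover the 5' end.

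The Phf19 peak covered the 5' end in every library and was 3508 to 4143 bp wide. Relative to the 5' end, with negative positions upstream, it ran from -1488 to 2381 bp and from -1192 to 2806 bp in control replicates 1 and 2. In the morphine replicates it ran from -622 to 2885 bp and from -1359 to 2783 bp. Its score of 122 and 147 in the controls exceeded that of 72.5% and 81.6% of the peaks of the same library, and its score of 170 and 190 in the morphine libraries exceeded 87.6% and 89.2%. Since the lists differ in length and a score depends on read depth, these scores and ranks cannot show a change in the mark. Phf19 RNA was present in all libraries at 29.4 to 32.8 CPM.

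At Epop, the peak lay upstream of the gene, from -1695 to -145 bp in control replicate 1 and from -1857 to -42 bp in morphine replicate 2. In morphine replicate 1 it was 3820 bp wide and ran from -1959 bp to 1860 bp, into the gene. Control replicate 2 holds the longest of the 4 lists, and its nearest peak was 28591 bp away. The scores were 87.2 in control replicate 1, 108 in morphine replicate 1 and 54.4 in morphine replicate 2, which is close to the lowest score in the lists, 50. When only the strongest peaks were kept, an equal number per library, Epop had a peak in control replicate 1 and morphine replicate 1 alone. Epop RNA was higher in the morphine libraries, as described above. The lack of a listed peak does not show that the mark was missing, since the lists differ in length and the reads behind them were not used here. No other locus with a strand has its 5' end within 5 kb of those of Epop, Phf19 or Jarid2, and loci without a strand were not checked.

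At Jarid2, a peak of 1412 bp with a score of 70.8 lay 1019 to 2430 bp downstream of the 5' end in morphine replicate 1, and the nearest peak of the other libraries was 81012 bp or more away. The nearest peaks of Aebp2 were 89830 to 90139 bp from its 5' end, those of Mtf2 49771 to 246217 bp, those of Phf1 10576 to 43992 bp and those of Ezh1 14927 to 52530 bp. Of the core genes, Suz12 had listed peaks after morphine alone, with scores of 62.7 and 53.0 in the 2 morphine libraries, and the other 4 had none. The scores at Suz12 exceeded those of only 24.3% and 6.69% of the peaks of the same library. The lack of a listed peak in the controls does not show that the mark was missing there. Among the partner genes, Lcor, which encodes the PRC2 partner PALI1 from an alternative transcript, had a peak in all 4 libraries, which began 516 to 1143 bp and ended 2951 to 3361 bp downstream of its 5' end. Lcorl, its paralog, had peaks in both control libraries at scores from 51.5 to 72.3, but at different places, downstream of the 5' end in replicate 1 (1576 to 2937 bp) and upstream of it in replicate 2 (-5737 to -3036 bp and -2751 to -524 bp), and the nearest peak of the morphine libraries was 367130 bp or more away. Kdm6b, an H3K27 demethylase, had a peak in all 4 libraries, with scores of 70.6 and 77.3 in the control against 105 and 112 after morphine. The scores of Lcor were 147 and 120 in the control against 126 and 125 after morphine. As at Phf19, such scores depend on read depth and cannot show a change in the mark. Eloc, Elob, Usp7, Ezhip and Kdm6a had no peak within 5 kb in any library.

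PRC2 is known to be recruited to unmethylated DNA rich in CpG, and the promoter sequences were therefore set beside the peaks. RefSeq sequences of GRCm38.p6, from 250 bp before to 50 bp after a start site, were matched for 6 of the 7 genes, and Epop had no entry. They are given 5' to 3' on the strand of the gene, with every CpG in capitals. Phf19 is shown as the gene with a peak in all libraries (chr2:34913927-34914226, reverse strand), Jarid2 as the gene with a peak in 1 library (chr13:44730524-44730823, forward strand), and Mtf2 (chr5:108065424-108065723, forward strand) and Ezh1 (chr11:101226414-101226713, reverse strand) as genes with none.
Phf19: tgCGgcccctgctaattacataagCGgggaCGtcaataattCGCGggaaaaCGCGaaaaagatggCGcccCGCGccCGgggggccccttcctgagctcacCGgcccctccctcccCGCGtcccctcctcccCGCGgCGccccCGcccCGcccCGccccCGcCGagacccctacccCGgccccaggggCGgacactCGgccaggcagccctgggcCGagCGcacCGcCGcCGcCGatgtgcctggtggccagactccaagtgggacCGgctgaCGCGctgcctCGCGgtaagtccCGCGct
Jarid2: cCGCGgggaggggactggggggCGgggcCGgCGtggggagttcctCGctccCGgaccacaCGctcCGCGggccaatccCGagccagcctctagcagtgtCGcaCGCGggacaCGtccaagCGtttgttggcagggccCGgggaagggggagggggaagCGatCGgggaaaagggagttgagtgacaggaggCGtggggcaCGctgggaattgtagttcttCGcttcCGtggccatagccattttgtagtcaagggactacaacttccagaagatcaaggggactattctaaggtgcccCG
Mtf2: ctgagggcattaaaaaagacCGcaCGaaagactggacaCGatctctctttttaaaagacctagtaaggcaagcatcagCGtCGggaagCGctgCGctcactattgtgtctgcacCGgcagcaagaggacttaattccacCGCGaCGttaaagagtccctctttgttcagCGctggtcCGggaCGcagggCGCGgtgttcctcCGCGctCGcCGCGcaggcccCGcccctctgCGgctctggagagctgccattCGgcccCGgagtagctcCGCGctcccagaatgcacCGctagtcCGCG
Ezh1: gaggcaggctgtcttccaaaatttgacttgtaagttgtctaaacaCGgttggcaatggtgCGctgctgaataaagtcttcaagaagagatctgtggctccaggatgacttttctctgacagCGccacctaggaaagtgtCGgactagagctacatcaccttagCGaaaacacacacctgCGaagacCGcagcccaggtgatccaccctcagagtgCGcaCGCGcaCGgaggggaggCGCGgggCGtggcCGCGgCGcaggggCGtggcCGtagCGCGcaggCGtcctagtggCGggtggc

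The Phf19 promoter holds 38 CpGs at 74.3% GC, more CpGs than 95.1% of the 32851 promoters of the table, whose median is 7. The Mtf2 promoter printed above holds 30, more than 88.3% of promoters, with an observed to expected CpG ratio of 1.09. The nearest peak of any library lay 49771 bp from the 5' end of the Mtf2 locus. Jarid2 and Phf1 hold 24 each and Ezh1 holds 23, against which 80.0% and 78.5% of promoters hold fewer. Aebp2 holds 4 CpGs at the start site that its locus begins with and 21 at a start site 2246 bp downstream. At least 1 CpG is found in 94.6% of all promoters of this length. Of the 2 Mtf2 start sites in the table, the other, at 108078165, holds 2 CpGs. The CpG-rich start site of Mtf2 lies 4934 bp downstream of the 5' end of the assembled locus, so that the 5 kb window of this gene was centred upstream of its promoter, and with any GENCODE start site the 7 genes kept the same peaks.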

How the data were processed

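H3K27me3 ChIP-Seq and poly(A) RNA-Seq libraries of control and morphine-treated mESCs were used, 2 per group, grouped by the sample titles. The RNA values are raw counts per locus deposited by the authors, who aligned reads to mm10 with HISAT2 (2.1.0), assembled transcripts with StringTie (1.3.6) and counted with featureCounts (1.6.4). Whether counting used strand is not given in the sources used here. The peak lists, deposited by the authors with a score of -10 times the log10 of the p-value, were called per library with MACS after Bowtie2 (2.3.5.1), at a p-value of 1e-05. The peak caller's control library is not given in the sources used here. The labels and the paper name different antibody suppliers.

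Loci past filterByExpr were TMM-normalized and tested with edgeR 4.0.16 (quasi-likelihood test, R 4.3.3) over all loci, Benjamini-Hochberg adjusted. Loci without a gene name took 2.04% of counts and were kept. Standard errors were taken as the log2 fold change over the square root of the F statistic. GC content was that of the exons of each locus in GRCm38, whose coordinates are those of mm10. Peak starts were converted to count from 1. Alternatives were DESeq2 1.42.0, the edgeR exact and likelihood ratio tests, other scalings and filters, the replicate number as a term, trends of length and GC content (natural splines with 5 degrees of freedom), an FDR of 0.01, other windows and peak scores, and each library left out. Fits and peak counts were tested on simulated data. The members, gene lists and tests were chosen with earlier results of these data known. All 7 members were named. Of the other lists, the genes past the FDR were to be named, with Ezh2 and Suz12, and Elob, Eloc, Kdm6a, Lcor, Lcorl and Kdm6b were named after their values were seen. The loci most like Epop were the 3 nearest by Euclidean distance of centred log2 CPM, among named loci within 1 log2 unit of its mean.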

Additional observations from a re-analysis of the deposited data

How the results depend on the processing

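Over all loci, 309 were called, 125 higher and 184 lower after morphine. The count was 790 with the edgeR exact test, 840 with the likelihood ratio test, 650 with DESeq2, 515 with scaling by total counts (281 higher and 234 lower), 1657 without a count filter, 101 with the length and GC trends removed (62 higher and 39 lower), 24 at an FDR of 0.01, and 13 to 1619 with each library left out, the lowest without morphine replicate 1 and the highest without control replicate 2. With the length trend alone removed, 158 were higher and 160 lower. The replicate number as a block gave 1128 calls, and same-numbered libraries did not deviate together (Pearson's r = -0.0199 across 13895 loci). Under the block 1 of the 7 genes, Epop, was called.

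Of the 7 genes, 1 was called as reported, 2 with DESeq2 and without a count filter (Epop and Mtf2; DESeq2 gave Phf1 and Phf19 no adjusted p), 0 with the length and GC trends removed and at an FDR of 0.01, and 0 to 1 with each library left out, 0 without morphine replicate 1. The reversed log2 fold changes were those of Aebp2 and Mtf2, 0.0182 and 0.0364 with the length and GC trends removed. The adjusted p of Epop ran from 1.7e-10 to 0.146 over the alternatives. Of the core genes, 0 were called as reported, 1 with DESeq2, 2 without a count filter and 0 to 1 with each library left out (Suz12 without control replicate 2 or morphine replicate 2). Of the partner and demethylase genes, 0 were called as reported, 1 with the exact and likelihood ratio tests, 2 with DESeq2, without a count filter and with the block, and 0 to 2 with each library left out. The cause of these differences was not tested.

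The number of the 7 genes with a peak in both morphine libraries and neither control was 0, and with each ChIP library left out it was 0 to 1 (Epop without control replicate 1, Jarid2 without morphine replicate 2). With a score of at least 100, Phf19 kept its peak in all 4 libraries and Epop had one in morphine replicate 1 alone. With the strongest peaks at an equal number per library, Epop lost the peak of morphine replicate 2, and with a 1 kb window Jarid2 lost its peak. Depth limits Phf1 most, at 303 to 406 counts per library.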

Other observations

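An unnamed locus of 454 bp lies inside Jarid2, on chromosome 13 from 44869571 to 44870024 of mm10, and overlaps no annotated GENCODE exon. It was looked at after its values had been seen, because it overlaps Jarid2 in the count table. Control replicates gave 5299 and 3113 counts against 2214 and 1983 with morphine, and the groups did not overlap. Its log2 fold change was -0.92 (standard error 0.20, adjusted p = 0.0476, edgeR's quasi-likelihood test). The size of the value rested on control replicate 1, without which it was -0.43, while it was -1.28 without control replicate 2, and both passed the same test. The call was lost, at values of -1.08 without morphine replicate 1 (adjusted p = 0.322), -0.77 without morphine replicate 2 (0.139) and -0.92 both with a filter of at least 1 CPM in 2 libraries (0.0561) and with DESeq2 (0.164). These alternatives were read for this locus after seeing the data. The table gives it no strand, and its counts are kept apart from those of the Jarid2 locus.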
